A study of Caenorhabditis elegans with 3 samples.

Results

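The regions described here lie where the LEM-2-rich arms of the *C. elegans* autosomes give way to the chromosome centres. They are the called LEM-2 regions on chromosomes I to V whose midpoint lay 3 Mb or more from both chromosome ends. Of 2932 LEM-2 regions in the whole list, 2851 were autosomal and 458 met this rule (16.1% of the autosomal regions, Wilson 95% interval 14.8% to 17.5%). The sequence beyond 3 Mb makes up 63.6% of the autosomal bases, so the 458 regions shared 52.4 Mb and covered 746093 bp. The other 2393 autosomal regions lay less than 3 Mb from an end, a zone called the outer 3 Mb here. The rule uses position alone. The region nearest the limit on the inside was on the left of chromosome I at 2999895 to 3001545, with its midpoint at 3.001 Mb and a score of 126.60. The nearest on the outside was on the right of chromosome II at 12248398 to 12250833, with its midpoint at 2.9995 Mb from the end and a score of 240.94.

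LEM-2 spans the inner nuclear membrane and belongs to the network of proteins around the nuclear lamina. Proteins of the LEM family take part in rebuilding the nuclear envelope after mitosis, and chromatin immunoprecipitation (ChIP) of LEM-2 recovers DNA that lies close to the nuclear membrane. *C. elegans* chromosomes are holocentric and have no single centromere to divide them, yet the autosomes have repeat-rich arms with frequent meiotic recombination and gene-rich centres where recombination is rare.

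The study profiled mixed-stage embryos of the wild-type strain N2, pooled over all cell types present, by ChIP followed by sequencing. The LEM-2 library was made with the rabbit polyclonal antibody SDQ3891 and the control IgG library with the antibody AB46540, and an input DNA library was not analysed here. Both immunoprecipitated libraries share the strain, the stage and the formaldehyde cross-linking, but they were made from different extracts with different protocol versions, so antibody and extract cannot be told apart. A single input, prepared from the control IgG extract, is named for both.

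Each antibody had 1 library, so no replicate error exists for any value, no difference between the antibodies or between parts of a chromosome could be tested across samples, and the intervals given cover counting error only. Neighbouring regions of a library are not independent, which makes even these intervals too narrow. The control IgG list held 415 regions, of which 354 were autosomal and 160 lay 3 Mb or more from both ends. Scores are the negative base-10 logarithm of a peak p-value multiplied by 10. A score grows with depth, which the lists do not record and which the study's methods give as greater for LEM-2 than for control IgG, and it was compared only within the LEM-2 list.

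The first question was where the LEM-2 regions stop at each of the 10 boundaries between an arm and a centre. A stop was defined as the inner edge of the last region, going inward from 3 Mb, before a first stretch of at least 250 kb without any LEM-2 region. The 10 stops lay between 3.26 and 4.72 Mb from the chromosome end, with a median of 3.79 Mb, and 6 of the 10 lay within 4 Mb. Chromosome V had late stops on both sides, chromosome III had stops before the median on both sides, and on chromosome II the sides differed most. The left side stopped farther in than the right on 2 autosomes and the right farther in on 3.

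**Figure D1:**
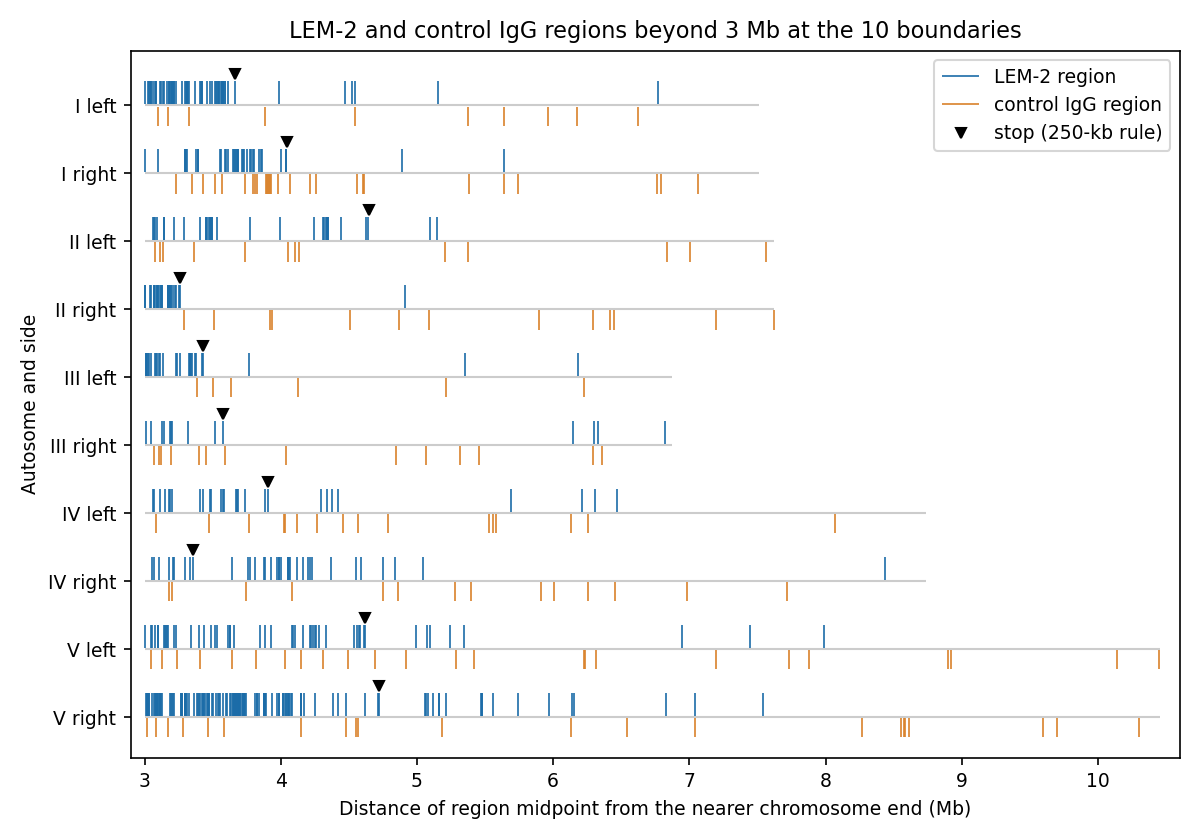
Each tick is a called region at its distance in Mb from the nearer chromosome end, for the 10 boundaries, with LEM-2 regions above each line, control IgG regions below it, a triangle at the stop and a grey line that ends at the middle of the chromosome. LEM-2 ticks crowd toward 3 Mb and thin out inward, most slowly on the right of V, while control IgG ticks are spread along the lines.

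The earliest stop was on the right of chromosome II, at 3.26 Mb, with a region at 11990952 to 11991985 that scored 90.19. Before it 28 of the 29 regions of that boundary were packed between 3 Mb and the stop, and after it came 1654 kb without a region. The right of IV stopped at 3.35 Mb by this rule, at 14127886 to 14128930 with a score of 102.2, but here only 9 of 36 regions lay before the stop and 27 beyond it. The boundaries with the earliest stops therefore differed, one ending in a long empty stretch and the other interrupted by 291 kb. On chromosome III the left stop lay at 3.43 Mb (3426534 to 3427490, score 122.25) and the right stop at 3.58 Mb (10167267 to 10168386, score 55.74). The right side of III had the fewest regions of any boundary, 14, and the stretch after its stop ran for 2570 kb.

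The left of chromosome I stopped at 3.67 Mb with one of the strongest regions of the list (3663784 to 3666496, score 2808.57), and 59 of its 65 regions lay before that point. The left of IV stopped at 3.91 Mb (3904491 to 3905630, score 57.94), with 20 regions before the stop and 8 beyond. The right of I stopped at 4.04 Mb (10976687 to 10978225, score 101.4), with 35 regions before and 2 beyond. The remaining 3 stops were the innermost. They lay at 4.62 Mb on the left of V (4618543 to 4619957, score 92.46), at 4.65 Mb on the left of II (4640721 to 4645311, score 1259.28) and at 4.72 Mb on the right of V (16185208 to 16186939, score 77.99). None of the 10 regions at a stop overlapped a control IgG region. In the whole LEM-2 list only 3.58% did, so an absence among 10 regions says little.

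The position of a stop depended on the stretch chosen to define it, which describes how ragged each edge was. With a stretch of 100 kb the median moved to 3.27 Mb, and with 500 kb to 4.49 Mb. On the right of II all 3 lengths gave the same stop at 3.26 Mb. By contrast, the left of V stopped at 3.23, 4.62 and 5.35 Mb with 100, 250 and 500 kb, and the right of V at 4.25, 4.72 and 6.15 Mb. A rule chosen after the data were seen, the inner edge of the innermost 250-kb bin with at least 5 regions, gave a median of 3.88 Mb and fell within 250 kb of the main stop at 7 boundaries. The exceptions were the right of III, the right of IV and the right of V, where this edge lay at 3.25, 4.25 and 5.25 Mb.

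**Figure D2:**
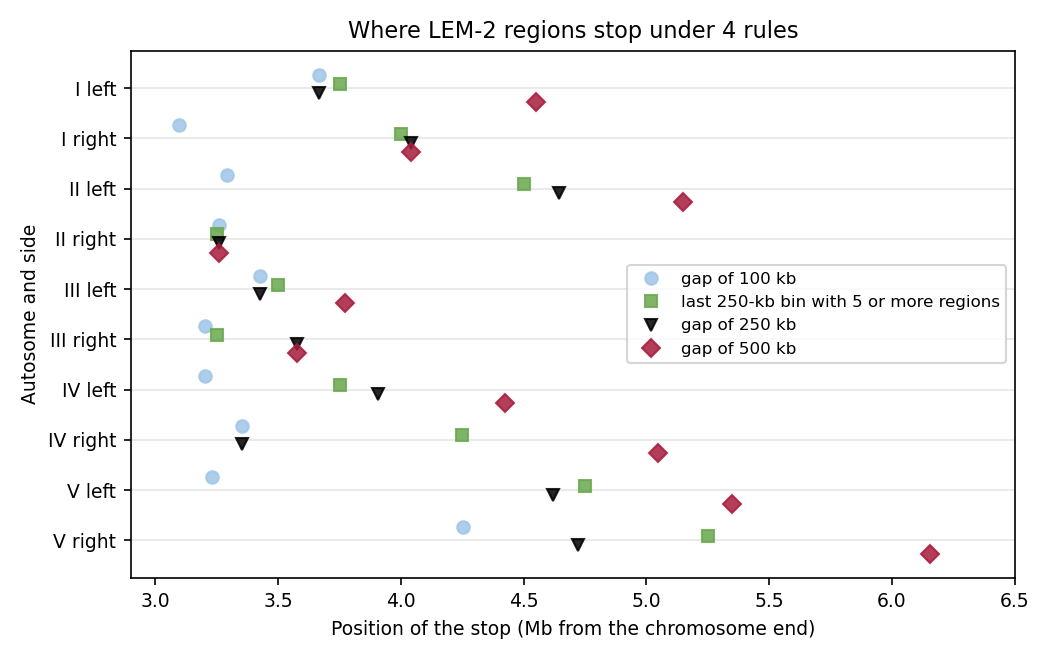
The stop of each boundary, in Mb from the chromosome end, under gaps of 100, 250 and 500 kb and under the rule of the last 250-kb bin with 5 or more regions. All marks of the right of II sit near 3.26 Mb, whereas those of the right of V run from 4.25 to 6.15 Mb.

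The boundaries did not share one way of thinning out toward the stop. Counted from the stop toward the end in 250-kb steps, they held 9.6 ± 8.1, 11.5 ± 7.9, 11.9 ± 9.4 and 10.2 ± 9.4 regions per step (SD over the 10 boundaries of 1 library, not over replicates). The step next to the stop held more regions than the step 750 to 1000 kb outside it at 5 boundaries, fewer at 4 and as many at 1. On the right of II the 4 steps held 26, 26, 24 and 8 regions, an edge that stayed dense up to the stop. On the right of III they held 2, 6, 17 and 26, and on the right of V 4, 3, 17 and 18, so these edges did thin out. The emptiness on the inner side of a stop follows from its definition.

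Pooled over the 10 boundaries, region numbers fell from 135 to 4 per 250-kb bin between 3 and 5 Mb. The 12 bins of 250 kb outside 3 Mb held between 139 and 241 LEM-2 regions each, and the lowest number was in the bin next to the limit. From 2 Mb to the limit the bins held 227, 142, 208 and 139, so lower numbers began before 3 Mb, unevenly. From 3 Mb inward the successive bins held 135, 84, 80, 41, 35, 21, 16 and 4 regions, reaching 5 Mb. The decline was not strictly even, since the bin from 5 to 5.25 Mb held 14, and beyond 5.25 Mb no bin held more than 5. Occupancy, the percentage of bases inside called regions, was 8.38% from 3 to 3.25 Mb, 2.67% from 3.75 to 4 Mb and 0.343% from 4.75 to 5 Mb. In the outer 3 Mb it was 13.6%.

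Control IgG regions declined far less over the same distance. Their bins outside 3 Mb held between 7 and 25 regions each, and the 8 bins from 3 to 5 Mb held 19, 13, 10, 15, 14, 6, 10 and 5. Per Mb there were 34.0 LEM-2 and 5.70 control IgG regions at 3 to 4 Mb, 7.60 and 3.50 at 4 to 5 Mb, and 1.30 and 2.10 at 5 Mb or more. In the outer 3 Mb these densities were 79.8 for LEM-2 and 6.47 for control IgG. LEM-2 regions therefore outnumbered control IgG regions 5.96 times between 3 and 4 Mb but were the fewer beyond 5 Mb, 42 against 68. Bin by bin this was not uniform, since the bin from 5 to 5.25 Mb held 14 LEM-2 and 5 control IgG regions, the 6 bins from there to 6.75 Mb 19 and 36, with fewer LEM-2 regions in each, and the bin from 6.75 to 7 Mb 4 and 4. Covered bases gave the same order, with an occupancy beyond 5 Mb of 0.237% for LEM-2 and 0.257% for control IgG. On chromosome V alone the order was not seen, with 25 LEM-2 and 24 control IgG regions beyond 5 Mb and an occupancy of 0.369% and 0.319%, while the other autosomes together had 17 and 44 regions. The lists differ in size and the LEM-2 library was the deeper by the study's methods, so these ratios describe 2 lists, and the part of depth in them was not tested.

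**Figure D3:**
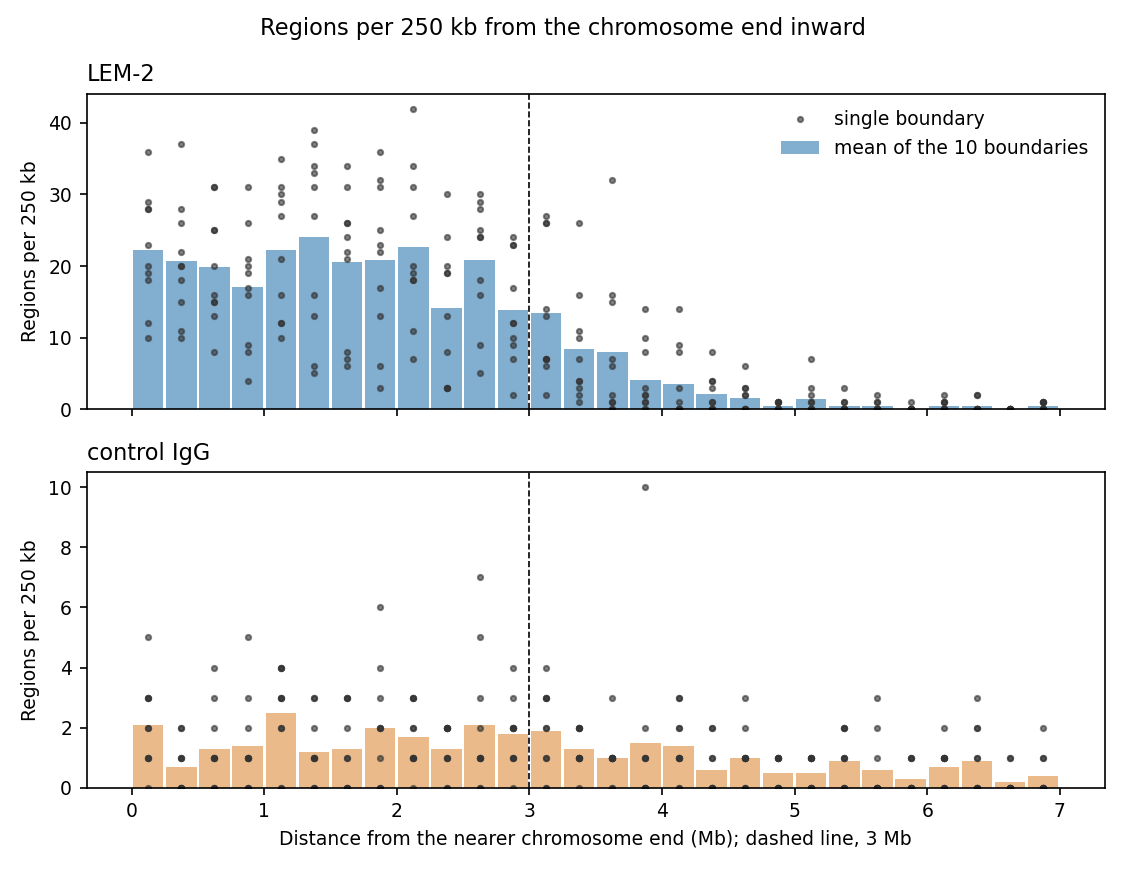
Regions per 250 kb against distance from the nearer chromosome end in Mb, for LEM-2 (upper) and control IgG (lower, with a smaller scale), with bars for means over the 10 boundaries and dots for single boundaries of 1 library. The LEM-2 mean is 13.5 regions at 3 to 3.25 Mb and 0.4 at 4.75 to 5 Mb, and the control IgG mean lies between 1.9 and 0.5 over that range.

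Of the 458 regions, 340 lay between 3 and 4 Mb from the end (74.2%, Wilson 95% interval 70.0% to 78.0%), 76 between 4 and 5 Mb and 42 farther in. Of the control IgG regions beyond 3 Mb, 57 of 160 lay between 3 and 4 Mb (35.6%, interval 28.6% to 43.3%). The median distance from the end was 3.54 Mb for the LEM-2 regions and 4.56 Mb for the control IgG regions, against 5.62 Mb for the bases beyond 3 Mb themselves. Without chromosome V, 80.0% of the LEM-2 regions lay between 3 and 4 Mb.

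The boundaries differed in how far region numbers fell from the window at 2 to 3 Mb to the window at 3 to 4 Mb. This compares whole windows and does not place the fall at 3 Mb. Pooled, the 250-kb bins next to the limit held 139 regions outside and 135 inside. In total 340 regions at 3 to 4 Mb followed 716 at 2 to 3 Mb, or 47.5%, and 9 of the 10 boundaries had fewer regions in the inner of these windows. The steepest fall was on the right of III, with 10 regions at 3 to 4 Mb and 104 at 2 to 3 Mb. The left of IV had 20 and 99, and the left of III 25 and 106. These 3 boundaries fell to between 9.62% and 23.6% of the preceding window.

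At 3 other boundaries the numbers hardly fell or went up. The right of V had 98 regions at 3 to 4 Mb and 68 at 2 to 3 Mb, the one boundary with an increase, and dropped only afterwards, to 21 at 4 to 5 Mb. The right of IV had 20 and 21, and the left of V 26 and 29. Both were already low before 3 Mb. The right of IV held 37, 28 and 21 regions in the successive Mb from the end, and the left of V held 84, 30 and 29, so the left of V was low only from 1 Mb inward. In the whole outer 3 Mb they held 86 and 143 regions, while the other 8 boundaries held between 210 and 316. The remaining boundaries were intermediate, with 60 and 81 on the left of I, 32 and 77 on the right of I, 21 and 55 on the left of II, and 28 and 76 on the right of II. All 10 boundaries had fewer regions at 4 to 5 Mb than at 3 to 4 Mb.

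The right of V contributed 137 of the 458 regions (29.9%), and the left of I followed with 65. Together these boundaries held 202 regions, or 44.1%. From 3 Mb inward the right of V held 26, 26, 32, 14 and 14 regions in its first 5 bins of 250 kb. No other boundary held more than 10 regions in a bin beyond 3.75 Mb. Occupancy beyond 3 Mb was 3.02% on the right of V, 2.27% on the left of I and 0.668% on the right of III, the lowest. Chromosome V as a whole had 188 regions, I 102, IV 64, II 63 and III 41, and leaving V out gave 270 regions that covered 439777 bp.

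Beyond the stops lay 79 regions (17.2%), of which 27 were on the right of IV and 18 on the right of V. The innermost of the 458 regions was on the right of IV at 9045673 to 9049177, 8.43 Mb from the end, with a length of 3505 bp and a score of 122.56. Its nearest neighbour was 2576 kb away. On V the innermost regions lay at 7.99 Mb on the left (7988513 to 7991823, score 1012.73) and at 7.54 Mb on the right (13365543 to 13366702, score 184.99). The innermost regions of both sides of V thus scored above the median.

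On III the innermost regions were at 6185184 to 6186279 on the left (6.19 Mb, score 131.96) and at 6919339 to 6920304 on the right (6.82 Mb, score 53.52). On I they were at 6771700 to 6773989 on the left (6.77 Mb, score 67.44) and at 9382424 to 9383631 on the right (5.64 Mb, score 236.74). The last of these was covered by a control IgG region over its full 1208 bp, the one innermost region with such an overlap. On II they lay at 5144140 to 5147073 on the left (5.15 Mb, score 250.07) and at 10335599 to 10336839 on the right (4.91 Mb, score 287.18), so no region of the right of II lay beyond 5 Mb. On the left of IV the innermost region was at 6468658 to 6469991 (6.47 Mb, score 531.52). Of the 42 regions beyond 5 Mb, 25 were on V.

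Scores beyond 3 Mb had a lower median than in the outer 3 Mb over all 458 regions, but not at every distance. The median score was 80.37 beyond 3 Mb (quartiles 61.5 and 124) and 94.45 in the outer 3 Mb (quartiles 67.2 and 150). Scores under 60, just above the lowest value of 50.01, made up 21.8% and 15.7%. A score of 100 or more was reached by 33.8% beyond 3 Mb (Wilson 95% interval 29.7% to 38.3%) and by 46.8% in the outer 3 Mb (interval 44.8% to 48.8%). By distance the median was 81.2 for the 340 regions at 3 to 4 Mb, 76.6 for the 76 at 4 to 5 Mb and 109 for the 42 at 5 Mb or more, where 52.4% reached 100 (interval 37.7% to 66.6%). Beyond 5 Mb the median was 79.6 for the 25 regions on chromosome V and 132 for the 17 on the other autosomes. The lower median was thus seen between 3 and 5 Mb and, on V, also farther in. Across the 458 regions the rank correlation of score with distance was close to 0 (Spearman's rho 0.0025, a description across neighbouring regions of 1 library).

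Scores of 200 or more were less frequent beyond 3 Mb than in the outer 3 Mb (10.9% against 15.3%), whereas scores of 1000 or more were more frequent there. The levels of 500 and 1000 used here were both chosen after the scores were seen. A score of 500 or more was reached by 14 of the 458 regions (3.06%, interval 1.83% to 5.07%) and by 45 of the 2393 outer regions (1.88%, interval 1.41% to 2.51%), and these intervals overlap. A score of 1000 or more was reached by 11 of the 458 regions (2.40%, interval 1.35% to 4.25%) and by 10 of the 2393 outer regions (0.418%, interval 0.227% to 0.768%). Thus 52.4% of the 21 autosomal regions with such scores lay beyond 3 Mb, where 16.1% of all autosomal regions lay. The lowest of the 14 scores was 531.52 and the next score below them 461.22, so the level of 500 falls in no wide gap. Their share was higher farther in, with 11 of the 118 regions beyond 4 Mb (9.32%, interval 5.28% to 15.9%) and 3 of the 340 between 3 and 4 Mb (0.882%, interval 0.301% to 2.56%).

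These 14 high-scoring regions occurred on all 5 autosomes and at 8 of the 10 boundaries. The right of V, with the most regions of all, had none, and neither had the right of II. The highest score, 3100, belonged to a region of 6167 bp on the left of III at 5352696 to 5358862, separated from its neighbours by 1582 kb and 826 kb. This score is shared by 6 regions of the list, so it gives no order among them. The second was the region at the stop on the left of I described above. The third scored 2598.09 and lay on the right of I at 10130218 to 10133469, with 747 kb and 843 kb free of LEM-2 on its sides. None of the 14 overlapped a control IgG region, but at the 3.58% of the whole LEM-2 list an absence among 14 regions says little.

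Most of the 14 stood alone. Of them, 13 had no other LEM-2 region within 10 kb and 8 none within 50 kb, and the median distance to the nearest region was 51.1 kb. Among the 51 regions with no neighbour within 50 kb, 8 scored 500 or more (15.7%, Wilson 95% interval 8.17% to 28.0%). Among the 306 with a neighbour within 10 kb it was 1 (0.327%, interval 0.0577% to 1.83%), namely 3334170 to 3337436 on the left of III, which scored 1648.89. The medians went the other way, at 73.27 for the isolated and 85.06 for the crowded regions, and rho between score and distance to the nearest region was −0.12 (n = 458). Isolation also went with distance from the end. No neighbour within 10 kb was found for 59.3% of regions beyond 4 Mb, where 11 of the 14 lay, and for 24.1% at 3 to 4 Mb. The part of distance in the contrast was not tested. Other high scores were found on the left of IV at 4416075 to 4422212 (2430.15), the region next to a gap of 1268 kb, and on the left of V at 5072921 to 5077102 (2000.48).

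**Figure D4:**
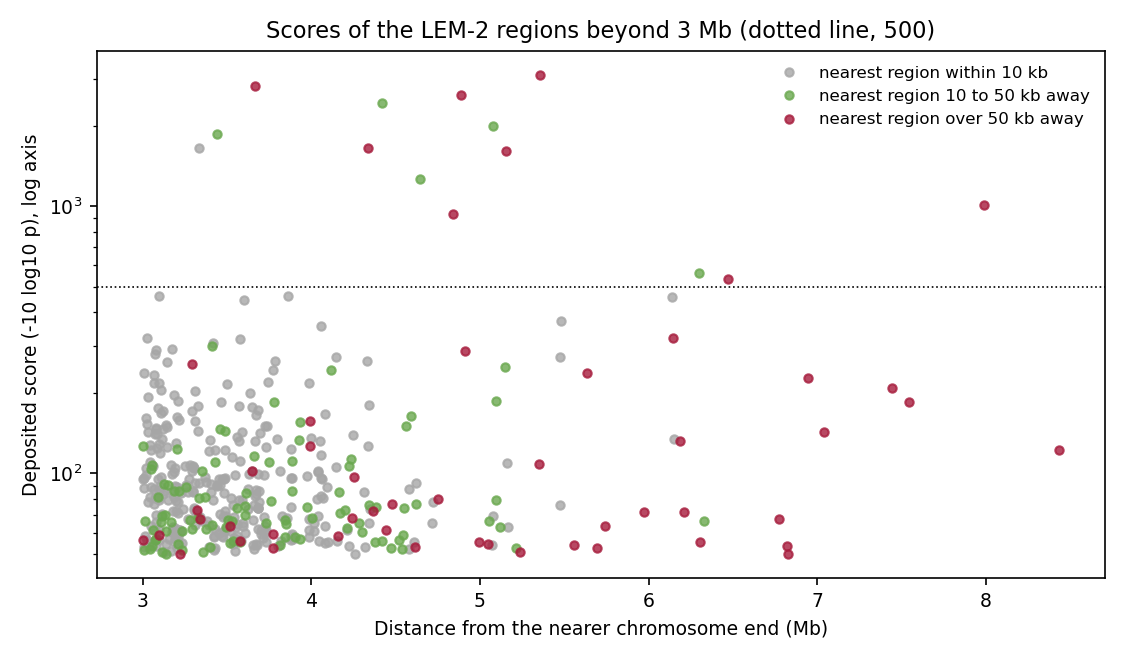
Deposited score (log axis) of the 458 LEM-2 regions against distance from the nearer chromosome end in Mb, coloured by the distance to the nearest other LEM-2 region. Of the 14 points above the dotted line at 500, 13 have no neighbour within 10 kb.

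Region length differed little across the transition. The median was 1276 bp beyond 3 Mb (quartiles 1055 and 1829) and 1332 bp in the outer 3 Mb (quartiles 1069 and 1955). At 3 to 4, 4 to 5 and 5 Mb or more the medians were 1270, 1398 and 1202 bp, and rho with distance was −0.0061 (n = 458). Length followed score to a similar degree in both zones, with a rho of 0.48 beyond 3 Mb and 0.48 outside. The 14 regions with scores of 500 or more had a median length of 3712 bp, against 1240 bp for the others.

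The longest region beyond 3 Mb measured 10763 bp and lay on the right of I at 11152596 to 11163358, 3.86 Mb from the end, with a score of 461.22. No control IgG region overlapped it, although that 250-kb bin held 8 LEM-2 and 10 control IgG regions, the highest control number in any bin of the 10 boundaries. The second, 8701 bp on the left of I at 4539988 to 4548688, scored only 58.84, and a control IgG region covered 96.1% of it. The third measured 8030 bp on the right of V at 17879817 to 17887846, with a score of 321.21 and a neighbour 0.388 kb away. The longest regions were thus of different kinds, one of them nearly coincident with the control list.

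Median spacing widened inward from zone to zone, but not in every bin of 250 kb. The median distance to the nearest region was 8817 bp from 3.75 to 4 Mb and 5915 bp from 4 to 4.25 Mb. Between neighbouring regions of a boundary beyond 3 Mb, 448 gaps had a median of 10.5 kb (quartiles 3.23 and 40.2 kb). In the outer 3 Mb, 2383 gaps had a median of 3.95 kb (quartiles 1.17 and 11.6 kb). The median was 6.78 kb for 331 gaps at 3 to 4 Mb, 31.6 kb for 81 gaps at 4 to 5 Mb and 154 kb for 36 gaps farther in. Gaps under 10 kb made up 57.1%, 30.9% and 13.9% of these. In the outer 3 Mb a single gap reached 250 kb, against 26 beyond it, of which 7 reached 1 Mb.

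Gap length rose in rank with distance from the end beyond 3 Mb, with a rho of 0.37 across the 448 gaps. In the outer 3 Mb this was not computed for gaps, and the 710 gaps between 2 and 3 Mb had a median of 4.09 kb. There, rho between distance from the end and distance to the nearest region was −0.028 (n = 2393). The bin from 2.75 to 3 Mb nevertheless had the highest median distance to the nearest region of the 12 outer bins, 2570 bp. The boundaries varied among themselves. Median gaps were shortest on the right of II (3.74 kb), the right of V (5.49 kb) and the left of I (6.21 kb). They were longest on the right of III (54.8 kb), the left of IV (39.7 kb) and the right of IV (37.2 kb). A gap that crosses the 3 Mb limit or the middle of a chromosome was not counted.

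**Figure D5:**
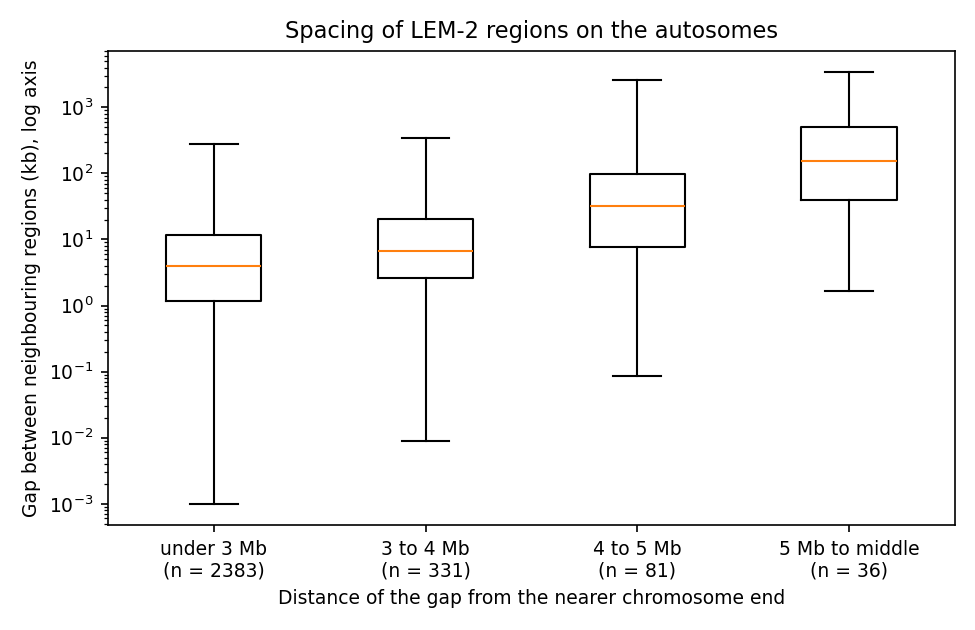
Gaps between neighbouring LEM-2 regions of a boundary (kb, log axis) by distance from the nearer chromosome end, with boxes for the quartiles and the median and whiskers for the shortest and longest gap. Medians are 3.95 kb in the outer 3 Mb, 6.78 kb at 3 to 4 Mb, 31.6 kb at 4 to 5 Mb and 154 kb from 5 Mb to the middle.

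When neighbours with gaps of at most 10 kb were joined, the 458 regions formed 239 clusters, of which 152 were single regions. Single regions made up 33.2% of the regions beyond 3 Mb and 10.9% of those in the outer 3 Mb. The share was 24.1% at 3 to 4 Mb, 48.7% at 4 to 5 Mb and 78.6% farther in. Clusters of 5 or more regions held 30.3% of the regions beyond 3 Mb and 58.3% of the outer ones. There were 17 such clusters at 3 to 4 Mb, 2 at 4 to 5 Mb and 0 beyond, where the largest cluster had 3 regions.

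The largest clusters lay on the left of I and the right of V. On the left of I, 14 regions lay between 3519208 and 3593169, a span of 74.0 kb of which 24.3% was covered. On the right of V, 14 regions spanned 59.6 kb from 17202811 to 17262382 with 38.3% covered, and 12 regions spanned 52.0 kb from 17789208 to 17841191 with 43.3% covered. The largest cluster of the outer 3 Mb held 34 regions, and the longest there spanned 137 kb. For clusters of at least 2 regions the median covered share was 38.3% beyond 3 Mb and 43.4% in the outer 3 Mb.

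Overlap with the control served to gauge how many of these regions coincide with background enrichment. At least 1 bp was shared with a control IgG region by 15 of the 458 regions (3.28%, interval 1.99% to 5.33%), close to the 3.58% of the whole LEM-2 list. In the outer 3 Mb it was 86 of 2393 (3.59%). The shares were 2.65% at 3 to 4 Mb (9 regions), 5.26% at 4 to 5 Mb (4 regions) and 4.76% farther in (2 regions), and their intervals overlap. At these numbers a difference in this share between distances was not detectable. Without chromosome V, 7 of the 270 regions left overlapped a control IgG region.

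From the side of the control list the share did vary with distance. Of the control IgG regions beyond 3 Mb, 15 of 160 overlapped a LEM-2 region (9.38%), against 88 of 194 in the outer 3 Mb (45.4%). The share was 15.8% at 3 to 4 Mb, 11.4% at 4 to 5 Mb and 2.94% farther in. LEM-2 occupancy over the same steps was 5.40%, 1.30% and 0.237%, against 13.6% in the outer 3 Mb, and its part in this decline was not tested.

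The 15 overlapping regions scored between 55.95 and 236.74, with a median of 98.65, and the other regions had a median of 79.61. Their median length was 1670 bp, against 1263 bp for the others. Control IgG regions covered between 36.9% and 100% of each. On the right of V there were 7 of them, on I 4, on IV 2, and 1 each on II and on the left of V, while III had none. Besides the innermost region of the right of I, the highest-scoring were at 17444481 to 17446805 on the right of V (score 184.71, 42.2% covered) and at 3324701 to 3326130 on the left of I (score 178.94, 60.7% covered). Without the overlapping regions the median stop stayed at 3.79 Mb and the share between 3 and 4 Mb was 74.7%.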

How the data were processed

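Region lists of 1 LEM-2 and 1 control IgG ChIP-seq library from mixed-stage N2 embryos were analysed. The deposited lists give a chromosome, start, end, name and score for each peak, and the peak names show that the authors called them with MACS, 1 list per library. The score deposited by the authors is, per their note, the negative log10 of the p-value multiplied by 10. The submitters' processing notes name BWA, whereas the study's methods name MAQ, with unique reads and no mismatches, and the ce4 (WS170) assembly for its sequencing profiles. Which of these lies behind the peak lists, and the settings of MACS, are not given in the sources used here, so positions are as deposited with 1-based starts, and no gene or sequence was assigned. The LEM-2 library had more aligned reads than the control IgG library by the study's methods. The lists were not adjusted for depth, and a deeper library would yield more regions.

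In the control IgG list 6 starts below 0 were set to the first base. The length of a chromosome was the largest end on it in either list, and distances were taken from the midpoint of a region to the nearer end. Distances on the left thus started at the first base and those on the right at the last called region. Right-side distances and stops can therefore differ from those to the true chromosome end. Counts, occupancy, scores, lengths and gaps were computed per boundary and per 250 kb in Python 3.11 with numpy 2.4.6, scipy 1.17.1, pandas 2.3.3 and matplotlib 3.10.9. Overlap meant at least 1 bp. The functions were checked on simulated lists. With 1 library per antibody no test was made. Named regions were the last before each stop, the innermost of each boundary, the 3 longest, the 3 highest-scoring, the 3 largest clusters, the 3 highest-scoring with control overlap and those nearest the limit. Others with scores of 500 or more were named after their values were seen. The members and the rules were chosen with earlier results of these data known.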

Additional observations from a re-analysis of the deposited data

How the results depend on the processing

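For 8 results, 71 alternative values were computed, 11 of them chosen after seeing the data. Of these, 47 stayed within 1.5 times for numbers and covered bases, within the Wilson interval for shares, or identical for the median stop, and 24 moved. With only LEM-2 regions at or above the median score of the list there were 182 regions beyond 3 Mb, which were 12.7% of the autosomal ones, covered 367722 bp, overlapped control IgG in 8 cases and stopped at a median of 3.34 Mb. With a limit of 4 Mb there were 118 regions (4.14%). Merging regions within 1 kb gave a share of 18.1%, and the higher-scoring part of the control list 7 overlaps among the 458 regions. The median stop was 3.27 Mb with a gap of 100 kb, 4.49 Mb with 500 kb, 6.21 Mb at the longest gap of each chromosome and 3.88 Mb by the bin rule. Leaving out each autosome in turn gave 270 to 417 regions, a share of 11.8% to 18.8%, 439777 to 674852 bp, 69.7% to 80.0% between 3 and 4 Mb, 7 to 15 overlaps and a median stop of 3.62 to 3.97 Mb, and the lowest number, share and covered length were without chromosome V. Taking chromosome lengths from the LEM-2 list alone changed none of the results for which it was computed. The median stop, the number of clusters and the share of scores of 500 or more were not recomputed this way. No paired analysis was possible because there was 1 library per antibody, and no replicate could be left out. Read depth limits which regions were called, and the lists were not adjusted for it.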
